A study of Mus musculus with 24 samples.

Results

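FMRP, the RNA-binding protein lost in Fragile X syndrome, was followed here together with its close relatives and partner proteins as RNA and as ribosome-protected fragments (RPFs) in mouse hippocampal slices. The 10 genes were picked by name: the family members Fmr1, Fxr1 and Fxr2, the partners Cyfip1, Cyfip2 and Nufip1, and the RNA granule proteins Caprin1, G3bp1, G3bp2 and Larp1. All 10 had a row in each of the deposited tables, which listed 23845 genes for RNA and 20436 for RPF, and all 10 were among the 14516 RNA and 12877 RPF genes that passed the filter on low counts. RNA-seq and ribosome profiling had been run on slices of male WT mice and their Tsc2+/- littermates aged 28 to 42 days, given ACSF (vehicle) or DHPG at 100 µM for 5 min. DHPG switches on the group I metabotropic glutamate receptors. The groups were therefore WT vehicle, WT DHPG, Tsc2+/- vehicle and Tsc2+/- DHPG, each with 3 RNA and 3 RPF libraries numbered as replicates 1 to 3. Every slice, controls included, then received cycloheximide at 100 µg/ml, which holds ribosomes on the mRNA. Per the study's methods, the Tsc2 allele was a germline deletion made with CMV-Cre and bred on C57BL/6J, so every cell type carried it. The same methods call these slices CA1-enriched, with CA3 trimmed off, and describe dissecting out CA1 after the incubation. They also state that slices of several mice were pooled for a library, and that part of each lysate was kept for RNA-seq. RNA and RPF libraries of the same group and replicate number were taken here to come from the same lysate, which the labels do not state. Footprints per RNA rest on that matching, whereas ratios of genes within an assay do not.

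FMRP binds mRNAs on polyribosomes and in transport granules and represses their translation, and signalling from group I metabotropic glutamate receptors acts through it in the hippocampus. FXR1P and FXR2P are its autosomal relatives. CYFIP1 and CYFIP2 bind FMRP and the cap-binding protein eIF4E, and they also sit in the WAVE complex that drives actin branching. NUFIP1 is an RNA-binding protein found with FMRP and with box C/D snoRNP assembly. CAPRIN1 and the G3BP proteins form the core of stress granules, and LARP1 binds the cap and the terminal oligopyrimidine tract of mRNAs under the control of mTORC1, the kinase complex that TSC2 restrains.

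The genes lie on the GRCm38.p6 assembly (mm10) at chrX:68678536-68717963 (Fmr1, plus strand), chr3:34020058-34069980 (Fxr1, plus), chr11:69632971-69653297 (Fxr2, plus), chr7:55842022-55932633 (Cyfip1, plus), chr11:46193849-46312859 (Cyfip2, minus), chr14:76110891-76137379 (Nufip1, plus), chr2:103762945-103797669 (Caprin1, minus), chr11:55469657-55500888 (G3bp1, plus), chr5:92052145-92137725 (G3bp2, minus) and chr11:57973418-58062034 (Larp1, plus). Other annotated genes overlap 8 of these 10 positions, Fmr1 and Nufip1 being clear. Among the protein-coding neighbours, Dnajc19 overlaps Fxr1, Nipa2 overlaps Cyfip1, Fndc9 overlaps Cyfip2 and Gm46933 overlaps G3bp2 on the opposite strand, and Nat10 overlaps Caprin1 on the same strand. The RNA kit kept strand, but whether the counting used it is not given in the sources used here, so RNA reads of these overlaps are uncertain.

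Because several of the genes are relatives, the counted coding sequence (30 bases removed at each end) was cut into windows of 30 bases, about the length of a footprint. No window was identical between any of the 8 pairs of relatives compared. Cyfip1 and Cyfip2 were the most alike, with 180 of 3673 Cyfip1 windows (4.90%) within 2 mismatches of a Cyfip2 window, and Fxr1 had 3 of 1945 (0.154%) within 2 mismatches of Fxr2. The other 6 pairs had 0 such windows. Identical copies of a window elsewhere in the genome were found for 2 windows of Fmr1 (chromosome 2), 2 of Fxr1 (chromosome 10) and 1 of Larp1 (chromosome 8), and for none of the other 7 genes. The longest stretch shared by each pair of paralogs that the results compare is shown here in capitals, between 20 bases of its own coding sequence on each side, since it is where a short read is hardest to assign. The sequences are RefSeq coding sequence read 5′ to 3′ from GRCm38.p6; those of Cyfip1, Cyfip2, G3bp1 and G3bp2 each lie within a single exon.
Cyfip1, chr7:55887833-55887896, plus strand: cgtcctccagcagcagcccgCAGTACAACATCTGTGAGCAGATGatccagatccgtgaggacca
Cyfip2, chr11:46270595-46270658, minus strand: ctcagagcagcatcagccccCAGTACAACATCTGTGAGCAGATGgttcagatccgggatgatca
Fxr1, chr3:34041119-34046053, plus strand, exons joined after base 38: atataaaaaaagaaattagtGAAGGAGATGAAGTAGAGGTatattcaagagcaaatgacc
Fxr2, chr11:69640290-69641303, plus strand, exons joined after base 38: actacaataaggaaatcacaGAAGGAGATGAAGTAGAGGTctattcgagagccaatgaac
G3bp1, chr11:55485657-55485711, plus strand: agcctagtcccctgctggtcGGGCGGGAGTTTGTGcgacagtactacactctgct
G3bp2, chr5:92073187-92073241, minus strand: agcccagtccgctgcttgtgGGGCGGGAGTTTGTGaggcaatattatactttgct
The shared run was 24 bases for the CYFIP genes, 20 bases for Fxr1 and Fxr2 and 15 bases for the G3BP genes, each shorter than a footprint. Fmr1 shared at most 14 bases with either Fxr1 or Fxr2. A footprint of 30 bases within the counted part of these transcripts thus differs from its paralog by at least 1 base.

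RNA libraries held about 14801700 to 24067800 counts. RPF libraries held about 7543760 to 13613700 counts in replicate 1 and 5296010 to 8507180 in replicates 2 and 3, where 97.9% to 98.5% of the non-zero counts were even numbers, against 48.2% to 49.0% in replicate 1. Tsc2, the gene that tells the genotypes apart, was at 193, 195 and 186 CPM (counts scaled to TMM library size) of RNA in WT vehicle and at 136, 128 and 137 CPM in Tsc2+/- vehicle. Its log2 fold change (log2FC) was -0.52 ± 0.05 (SE) for RNA and -0.74 ± 0.07 for RPF (edgeR adjusted p = 2.03e-07 and 4.03e-07), and the libraries of the genotypes did not overlap. Summed CA1 pyramidal markers stood at 1073 to 1208 CPM, those of neurons at 3969 to 4250, astrocytes at 1439 to 1717, oligodendrocytes at 3989 to 5184, microglia at 133 to 188 and endothelium at 36.1 to 56.3. For CA3 only 2 of 4 listed markers were summed (Bok and Cdh24), at 20.8 to 27.4 CPM, so that sum is partial. Markers of dentate granule cells stood at 22.1 to 53.1, while 3 choroid plexus markers had 0 to 13 counts in a library. The sum of dentate markers was lower in Tsc2+/- DHPG (22.1 to 28.2) than in WT DHPG (39.3 to 45.0), Tsc2+/- vehicle (29.9 to 39.9) and WT vehicle (30.2 to 53.1). Blood markers (3 of 4 listed) spanned 7.67 to 14.95 CPM in WT and 1.21 to 8.16 in Tsc2+/-. In an alternative run, the RNA and RPF libraries of WT vehicle replicate 2 were left out. The share of all genes called for a change in footprints per RNA with DHPG in WT then rose from 0.0469% to 2.92%. That was the largest such shift of any library. Values without this replicate are given below only for Fmr1 and Nufip1, for footprints per RNA by genotype in vehicle. Slices hold many cell types, so fewer cells of a type and less RNA per cell cannot be told apart in any of these values.

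The highest and lowest of the 10 genes differed far more from each other than any of the 10 differed between lysates. Levels were compared between genes only after division by length, as CPM per kb of the longest RefSeq coding transcript for RNA and CPM per kb of counted coding sequence for RPF, over 12195 genes with both lengths. For RNA, Cyfip2 stood first at 207 ± 3.84 CPM per kb (SD, n = 3 WT vehicle libraries), higher than 98.3% of the genes measured, and Nufip1 last at 3.60 ± 0.470, higher than 29.9%. The remaining 8 genes lay between 11.8 (Fmr1) and 45.1 CPM per kb (G3bp2), all above the median gene at 8.32. From highest to lowest RNA the order was Cyfip2, G3bp2, Fxr2, Caprin1, Larp1, Fxr1, G3bp1, Cyfip1, Fmr1 and Nufip1. Each gene exceeded the next in all 12 libraries except for Fxr2 over Caprin1 (7 of 12) and G3bp1 over Cyfip1 (11 of 12), 2 pairs of neighbours whose WT vehicle values overlapped.

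The order of the same genes by footprints was another. G3bp2 stood first at 232 ± 10.8 RPF CPM per kb in WT vehicle, followed by Cyfip2 at 219 ± 27.6 and Caprin1 at 169 ± 26.4. Cyfip1, G3bp1, Fxr1, Fmr1, Fxr2 and Nufip1 came next, from 65.7 down to 23.4 CPM per kb. Larp1 was last at 14.1 ± 1.86, the only gene of the 10 under the median gene (17.8). G3bp2 and Cyfip2 changed places among libraries, with G3bp2 higher in 7 of 12, and G3bp1 exceeded Fxr1 in 9 of 12. Fmr1 exceeded Fxr2 in all 12 lysates, although their WT vehicle ranges overlapped.

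**Figure D1:**
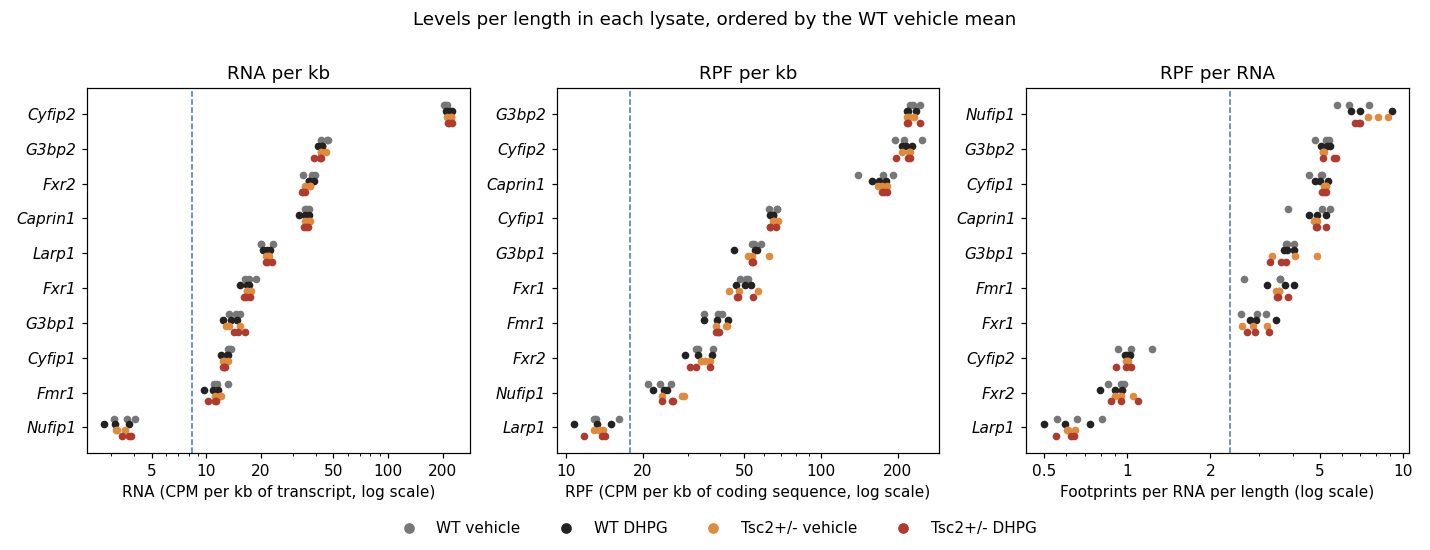
RNA (CPM per kb of transcript), RPF (CPM per kb of counted coding sequence) and footprints per RNA per length, all on log axes, for each of the 12 lysates. Colours give the 4 groups, genes are ordered by the WT vehicle mean, and the dashed line is the median of 12195 genes. Cyfip2, Fxr2 and Larp1 sit below that line in footprints per RNA in every lysate and the other 7 genes above it, while the groups lie on top of each other.

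Footprints per RNA, the RPF level per kb divided by the RNA level per kb in the same lysate, split the genes into a high and a low set. Nufip1 had the highest value at 6.56 ± 0.881 in WT vehicle (SD, n = 3), followed by G3bp2 (5.15), Cyfip1 (4.90), Caprin1 (4.77), G3bp1 (3.86), Fmr1 (3.27) and Fxr1 (2.91), all above the median gene at 2.36. Cyfip2 (1.06 ± 0.152), Fxr2 (0.922 ± 0.0645) and Larp1 (0.673 ± 0.130) were below it, and Larp1 exceeded only 6.86% of the genes. Fxr1, the lowest of the high set by its mean, was 2.50 to 3.39 times Cyfip2 and 2.66 to 3.68 times Fxr2 in the 12 lysates. Within the sets, neighbours from G3bp2 to Fmr1 changed places in 2 to 5 of 12 lysates, and Cyfip2 and Fxr2 in the low set in 2 of 12, so the order of these genes is not settled by these data. The scale of this ratio is arbitrary, since each assay was scaled to its own total, and RNA was counted over whole transcripts while RPF was counted over coding sequence.

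Over all 12 lysates the highest value of a gene was 1.11 to 1.47 times its lowest for RNA per kb, 1.08 to 1.51 times for RPF per kb and 1.17 to 1.63 times for footprints per RNA. Between the top and bottom genes, by contrast, the ratio of WT vehicle means was 57.4 for RNA, 16.5 for RPF and 9.75 for footprints per RNA.

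Fmr1 encodes FMRP itself. Its RNA was at 57.9, 50.2 and 48.6 CPM in WT vehicle, 42.9, 47.8 and 51.0 in WT DHPG, 49.2, 52.5 and 53.2 in Tsc2+/- vehicle, and 50.03, 49.4 and 44.7 in Tsc2+/- DHPG. The groups overlapped throughout. Averaged over genotypes the log2FC with DHPG was -0.12 ± 0.06 (95% interval -0.23 to -0.007, edgeR quasi-likelihood test, unadjusted p = 0.0380, adjusted p = 0.639), and 7.49% of all genes tested had an unadjusted p under 0.05 in that comparison. Without WT vehicle replicate 1 the difference was -0.07. Fmr1 RPF was at 62.1, 72.8 and 70.4 CPM in WT vehicle, 70.1, 62.1 and 77.3 in WT DHPG, 69.1, 75.6 and 76.3 in Tsc2+/- vehicle, and 70.8, 70.7 and 69.4 in Tsc2+/- DHPG. All Tsc2+/- libraries lay within the WT range, with a log2FC of 0.10 (interval -0.07 to 0.28) in vehicle and 0.01 (-0.17 to 0.18) in DHPG. The log2FC of translational efficiency (TE), which is the change in RPF beyond that in RNA, was 0.12 (-0.13 to 0.36) for genotype in vehicle. Without WT vehicle replicate 1, where footprints per RNA were lowest (2.65 against 3.58 and 3.58), it was -0.04, and without WT vehicle replicate 2 it was 0.23.

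Fxr1 and Fxr2 encode the relatives of FMRP that share its RNA-binding domains. Fxr1 RNA spanned 35.6 to 43.6 CPM over the 12 libraries and its RPF 86.3 to 112 CPM, with overlapping groups in every comparison. Per kb, Fxr1 RNA was 0.393 to 0.552 times that of Fxr2, yet its footprints were 1.30 to 1.73 times as many, and footprints per RNA were 2.66 to 3.68 times those of Fxr2 in the 12 lysates. Fxr2 RNA was thus above Fxr1 RNA in all 12 libraries and its RPF below in all 12. Fmr1 lay below both for RNA (Fxr2 was 2.59 to 3.77 times Fmr1), whereas for RPF it lay between them.

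Fxr2 was 1 of only 2 genes with any unadjusted p under 0.05. Its RNA was at 109, 109 and 116 CPM in WT DHPG and at 102, 104 and 100 CPM in Tsc2+/- DHPG, so those groups did not overlap, and the log2FC was -0.12 ± 0.06 (interval -0.24 to -0.01, edgeR unadjusted p = 0.0412, adjusted p = 0.997). In that comparison 4.64% of all genes had an unadjusted p under 0.05. In vehicle, Fxr2 RNA was at 101, 113 and 118 CPM in WT and at 104, 110 and 111 in Tsc2+/-, which overlapped, with a log2FC of -0.03 (-0.15 to 0.09). Without Tsc2+/- DHPG replicate 3 the difference in DHPG was -0.08. The difference between these genotype effects, the interaction, was -0.10 (-0.26 to 0.07, adjusted p = 0.999). Fxr2 RPF was at 64.9, 57.4 and 73.5 CPM in WT DHPG and at 63.6, 60.2 and 72.2 in Tsc2+/- DHPG, with a log2FC of 0.00 (-0.17 to 0.18). Summed dentate granule markers also differed between these DHPG groups, as given above, and their part in the Fxr2 value was not tested.

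**Figure D2:**
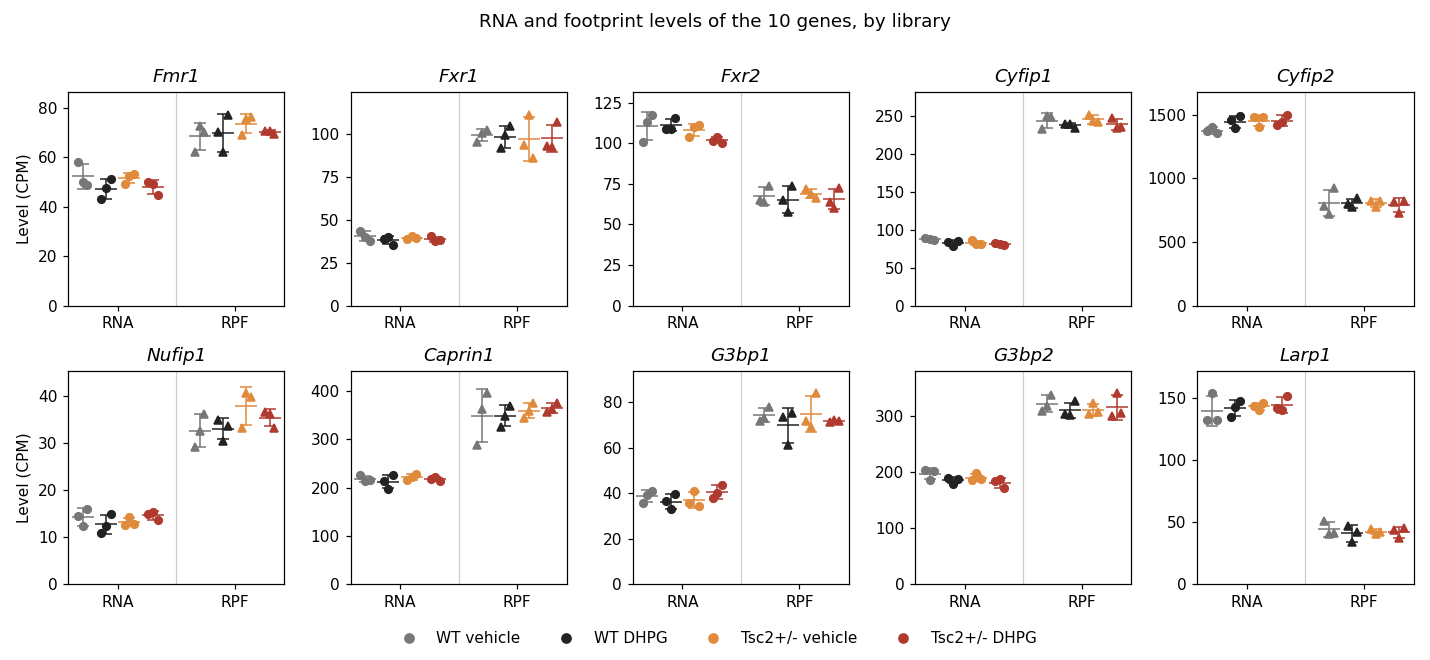
Levels in CPM of RNA (circles) and RPF (triangles) for each gene, with 1 point per library, the mean as a horizontal line and the SD as the error bar (n = 3); axes start at 0 and differ between genes. The 4 groups of a gene overlap in most panels, as for Fmr1 RNA (42.9 to 57.9 CPM over the 12 libraries).

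Cyfip1 and Cyfip2 encode large and very similar proteins that link FMRP to eIF4E and to the WAVE complex, and their RNA and ribosome occupancy were far apart. Cyfip1 RNA was at 89.5, 87.0 and 85.8 CPM in WT vehicle, 84.2, 78.8 and 85.3 in WT DHPG, 85.7, 81.5 and 80.4 in Tsc2+/- vehicle, and 82.7, 81.1 and 80.1 in Tsc2+/- DHPG. The 3 WT vehicle libraries were above those of WT DHPG and of Tsc2+/- vehicle, but by little, with log2FC of -0.08 (-0.20 to 0.04, adjusted p = 0.881) for DHPG in WT and -0.08 (-0.21 to 0.04, adjusted p = 0.991) for genotype in vehicle by edgeR. Cyfip1 RPF spanned 232 to 251 CPM over all 12 libraries and showed a log2FC of 0.01 (-0.11 to 0.13) for genotype in vehicle. Its footprints per RNA were higher in each Tsc2+/- vehicle lysate (5.17 to 5.28) than in each WT vehicle lysate (4.56 to 5.10), with a log2FC of 0.09 (-0.07 to 0.26, adjusted p = 0.910).

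Cyfip2 RNA was at 1370, 1404 and 1354 CPM in WT vehicle, 1457, 1396 and 1488 in WT DHPG, 1480, 1402 and 1481 in Tsc2+/- vehicle, and 1417, 1444 and 1501 in Tsc2+/- DHPG. Its RPF was at 722 to 921 CPM in WT vehicle and 729 to 844 in the other groups. WT vehicle RNA overlapped WT DHPG and Tsc2+/- vehicle, with log2FC of 0.07 (-0.02 to 0.16) for DHPG in WT and 0.08 (-0.01 to 0.17) for genotype in vehicle. WT vehicle RNA was below all of Tsc2+/- DHPG, but those groups differ in both genotype and treatment. That pair was not among the contrasts tested, and the share of all genes so separated was not determined for it. Cyfip2 had the narrowest RNA intervals of the 10 genes and was also the gene with the most RNA counts.

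Within each lysate Cyfip2 RNA per kb was 14.99 to 18.4 times that of Cyfip1, while its RPF per kb was only 2.89 to 3.71 times as high. Footprints per RNA were accordingly lower for Cyfip2, at 0.179 to 0.240 times the Cyfip1 value in all 12 lysates. This within-lysate ratio does not depend on library scaling. For RNA it was 14.99 to 15.8 in WT vehicle, 16.9 to 17.4 in WT DHPG, 16.8 to 18.0 in Tsc2+/- vehicle and 16.8 to 18.4 in Tsc2+/- DHPG. WT vehicle was therefore below every other lysate in this RNA ratio. That was looked at after its values were seen and was not tested, and the share of gene pairs so separated was not determined. Neither gene was called in any contrast. No such separation was present for RPF (2.89 to 3.71 in WT vehicle and 3.12 to 3.62 in the rest).

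**Figure D3:**
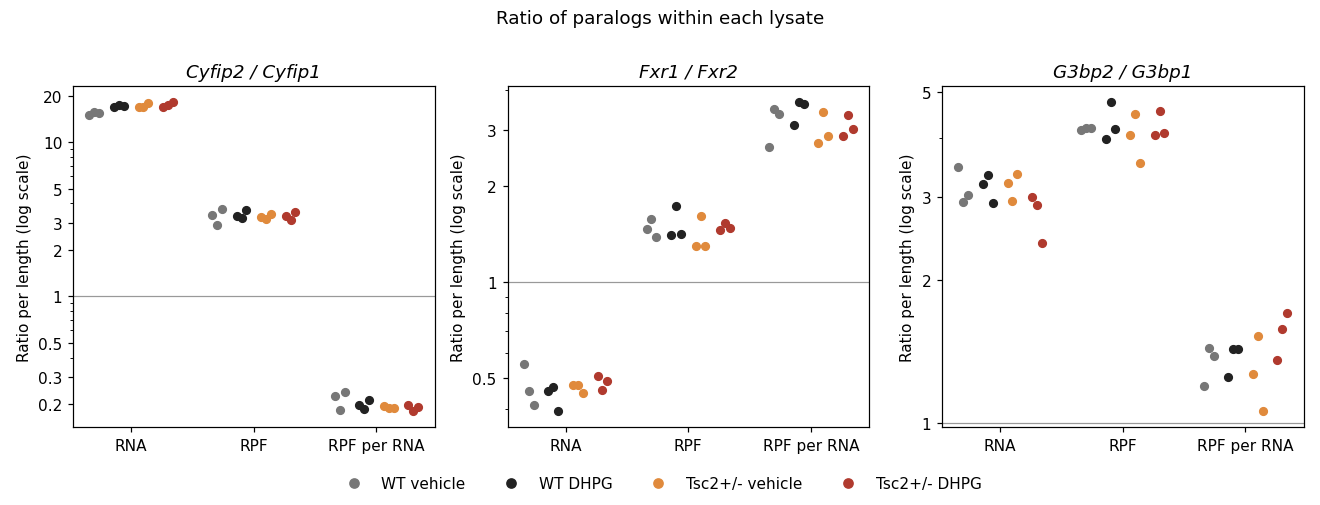
Ratio of paralogs per length within each lysate, for RNA, RPF and RPF per RNA, on log axes, with colours for the 4 groups and a line at 1. Cyfip2 over Cyfip1 falls from 14.99 to 18.4 for RNA to 0.179 to 0.240 for RPF per RNA, and Fxr1 over Fxr2 crosses the line from 0.393 to 0.552 for RNA to 1.30 to 1.73 for RPF, while G3bp2 over G3bp1 stays above 1.

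Nufip1, which encodes an FMRP-interacting protein of the nucleus and cytoplasm, had the lowest RNA of the 10 genes and the widest spread of RNA between lysates. Its RNA was at 14.5, 12.4 and 16.1 CPM in WT vehicle, 10.9, 12.4 and 14.9 in WT DHPG, 12.6, 14.2 and 12.9 in Tsc2+/- vehicle, and 14.9, 15.4 and 13.7 in Tsc2+/- DHPG. Its RPF was at 29.3, 32.6 and 36.1 CPM in WT vehicle, 34.9, 30.5 and 33.7 in WT DHPG, 33.2, 40.6 and 39.8 in Tsc2+/- vehicle, and 36.6, 36.3 and 33.3 in Tsc2+/- DHPG. These groups overlapped, and the libraries held only 165 to 338 RNA counts and 190 to 479 RPF counts for the gene. The RPF counts of replicates 2 and 3, being nearly all even, may count each footprint more than once, so the footprints behind them may be fewer than these counts and the library totals say. The largest differences of the whole set were seen here, for TE: log2FC 0.31 (-0.03 to 0.66, edgeR adjusted p = 0.868) for genotype in vehicle and -0.42 (-0.90 to 0.06, adjusted p = 0.999) for the interaction of genotype and DHPG. Footprints per RNA per length were 5.77, 7.51 and 6.40 in WT vehicle, 9.10, 7.01 and 6.46 in WT DHPG, 7.49, 8.13 and 8.81 in Tsc2+/- vehicle, and 7.003, 6.72 and 6.94 in Tsc2+/- DHPG. Values in Tsc2+/- DHPG were below each value in Tsc2+/- vehicle (log2FC -0.24, interval -0.57 to 0.10), whereas the WT groups overlapped. Those Tsc2+/- groups also differed in summed dentate granule markers, as given above. Taken singly, Prox1, Dsp and Lct overlapped between these groups. C1ql2 separated them narrowly (lowest 5.05 CPM in vehicle, highest 5.04 in DHPG). The part of these markers in the Nufip1 value was not tested. Without WT vehicle replicate 2 the genotype difference in TE in vehicle was 0.44, with an edgeR adjusted p of 0.418, and without WT vehicle replicate 1 it was 0.21. Without WT DHPG replicate 1 the interaction was -0.23.

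Caprin1 and the G3BP genes encode partners that assemble stress granules, and CAPRIN1 also travels with FMRP in neuronal granules. Caprin1 RNA was at 225, 213 and 217 CPM in WT vehicle and at 216, 223 and 229 in Tsc2+/- vehicle. Its RPF was at 289, 363 and 395 CPM in WT vehicle and at 345, 359 and 375 in Tsc2+/- vehicle. WT vehicle spanned more than every other group for RPF, and the log2FC for genotype in vehicle were 0.03 (-0.08 to 0.13) for RNA and 0.05 (-0.07 to 0.18) for RPF. In the DHPG groups Caprin1 RNA lay at 198 to 225 CPM and RPF at 327 to 376 CPM.

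G3bp1 RNA was at 36.0, 39.2 and 41.1 CPM in WT vehicle, 36.6, 33.1 and 39.7 in WT DHPG, 35.7, 41.3 and 34.4 in Tsc2+/- vehicle, and 38.0, 40.0 and 43.8 in Tsc2+/- DHPG. In DHPG the genotypes overlapped, and the log2FC was 0.16 (-0.02 to 0.33, edgeR adjusted p = 0.997). The interaction was 0.22 (-0.03 to 0.46). G3bp1 RPF spanned 61.1 to 84.0 CPM and differed by 0.03 (-0.14 to 0.20) between the genotypes in DHPG.

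G3bp2 RNA was at 203, 186 and 202 CPM in WT vehicle, 190, 179 and 189 in WT DHPG, 186, 198 and 188 in Tsc2+/- vehicle, and 185, 188 and 171 in Tsc2+/- DHPG. Vehicle and DHPG groups overlapped in each genotype, and the log2FC with DHPG averaged over genotypes was -0.08 (-0.16 to 0.00, unadjusted p = 0.0532, edgeR adjusted p = 0.662), which DESeq2 gave with an adjusted p of 0.319. Its RPF spanned 301 to 341 CPM, with a log2FC of -0.02 (-0.10 to 0.07) for the same comparison. G3bp2 exceeded G3bp1 per kb in every lysate, by 2.40 to 3.47 times for RNA, 3.53 to 4.77 times for RPF and 1.06 to 1.71 times for footprints per RNA.

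Larp1 encodes the cap-binding repressor of mRNAs with a terminal oligopyrimidine tract, a substrate of mTORC1. Its RNA was at 132, 154 and 133 CPM in WT vehicle, 135, 143 and 148 in WT DHPG, 144, 141 and 146 in Tsc2+/- vehicle, and 142, 140 and 152 in Tsc2+/- DHPG. Its RPF was at 51.2, 40.7 and 41.5 CPM in WT vehicle, 47.2, 34.0 and 41.8 in WT DHPG, 44.2, 40.6 and 42.4 in Tsc2+/- vehicle, and 43.5, 37.0 and 45.1 in Tsc2+/- DHPG. All groups overlapped, and the log2FC for genotype in vehicle were 0.04 (-0.08 to 0.16) for RNA, -0.07 (-0.27 to 0.13) for RPF and -0.11 (-0.34 to 0.11) for TE. Footprints per RNA were the lowest of the 10 genes in each lysate, at 0.497 to 0.811.

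No gene of the 10 was called at an edgeR adjusted p under 0.1 in any of the 21 comparisons, which were 7 contrasts of the groups for each of RNA, RPF and TE. For RNA the share of all genes called was 0.0896% for genotype in vehicle slices and 0.0482% in DHPG slices, 0.227% for genotype averaged over treatments and 0.0207% for DHPG averaged over genotypes, and 0% for DHPG in WT, DHPG in Tsc2+/- and the interaction. For RPF it was 0.0233%, 0.0155%, 0.0621% and 0.0311% in the same order, with 0.0311% for DHPG in WT and 0% for DHPG in Tsc2+/- and the interaction. For TE it was 0.0469% for DHPG in WT and 0.0469% for DHPG averaged over genotypes, and 0% for the other 5. With so few genes called, 0 of 10 is not apart from the background. At an unadjusted p under 0.05 there were 2 of 210 tests (0.952%), the Fmr1 and Fxr2 RNA values above, beside 3.01% to 9.07% of all genes over the 21 comparisons. The contrasts share libraries, so these tests are not independent of each other.

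The 95% intervals show what size of difference these libraries could have missed, for each gene alone and without correction for the number of tests. For RNA and genotype in vehicle, the log2FC of the 10 genes ran from -0.10 to 0.08 and no 95% interval reached beyond 0.36 in either direction. The corresponding limits were 0.44 for RPF and 0.66 for TE, set in each case by Nufip1. For DHPG in WT the limits were 0.42 for RNA, 0.32 for RPF and 0.53 for TE. Some other contrasts had wider limits, up to 0.66 for RNA and 0.90 for TE, both for the interaction. Tsc2 itself had a log2FC of -0.52 for RNA and -0.74 for RPF in vehicle. Both lay outside the RNA and RPF limits given for genotype in vehicle and for DHPG in WT.

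**Figure D4:**
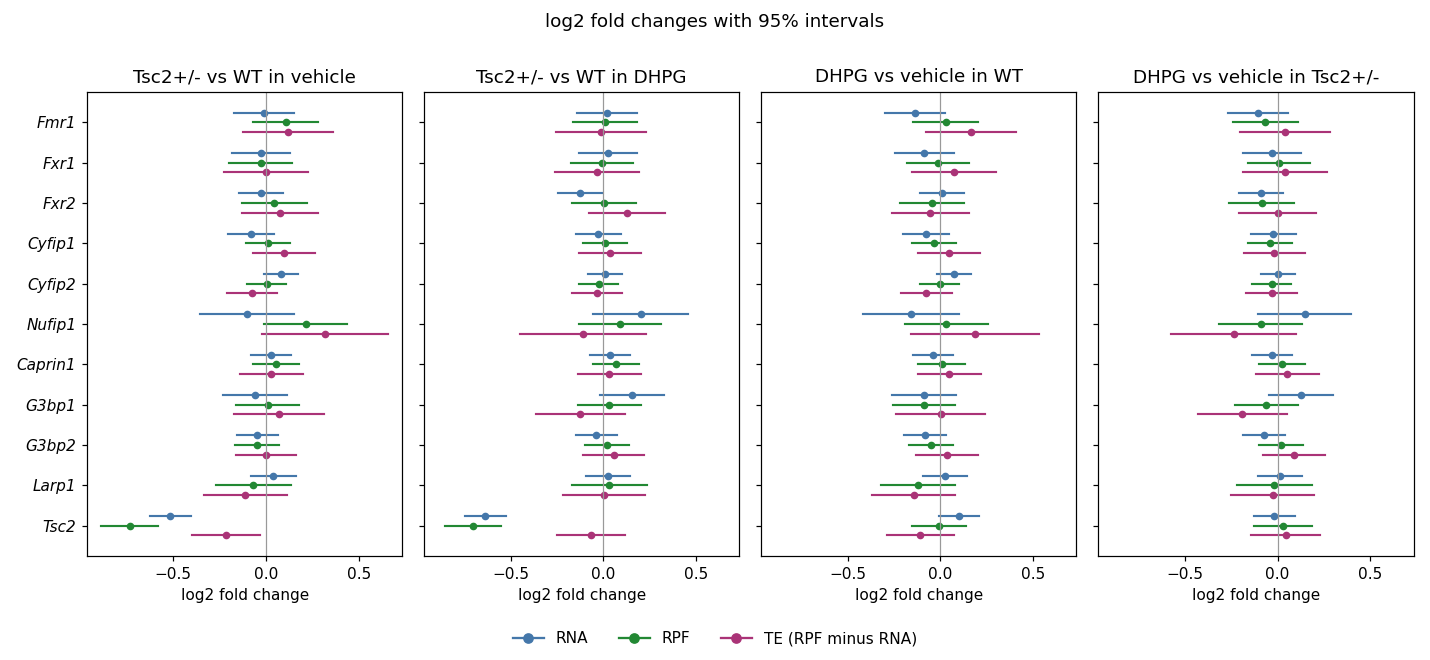
log2FC (points) with 95% intervals (lines) for RNA, RPF and TE in 4 contrasts of the groups, for the 10 genes and Tsc2. The intervals of the 10 genes cross 0 except that of Fxr2 RNA for genotype in DHPG (-0.24 to -0.01), and Tsc2 RNA and RPF lie at -0.52 to -0.74 in the genotype contrasts.

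The number of the 10 genes on each side of 0 varied between contrasts. The most one-sided count was RPF with DHPG averaged over genotypes, where 9 of 10 had a log2FC below 0, by little (median -0.02, range -0.07 to 0.01). Among all genes tested, 6531 of 12877 were below 0 in that contrast. RPF for genotype in DHPG was next, with 8 of 10 above 0 (median 0.01), beside 6253 of 12877 for all genes. For DHPG in WT, 7 of 10 genes had an RNA log2FC below 0 (median -0.08, beside 0.00 for all genes tested) and 7 of 10 an RPF log2FC below 0 (median -0.02, beside 0.00). All genes had 7326 of 14516 below 0 for RNA there and 6498 of 12877 for RPF. For genotype in vehicle, 7 of 10 were below 0 for RNA (median -0.03) and 7 of 10 above 0 for RPF (median 0.01). The counts for all genes were 7377 of 14516 below 0 for RNA and 6375 of 12877 above 0 for RPF. Groups of 3 did not overlap in 3 of 40 gene and contrast combinations for RNA (Cyfip1 for genotype in vehicle and for DHPG in WT, and Fxr2 for genotype in DHPG), in 0 of 40 for RPF and in 2 of 40 for TE (Cyfip1 for genotype in vehicle and Nufip1 for DHPG in Tsc2+/-). Among all genes such separation occurred in 8.2% (genotype in vehicle), 9.44% (genotype in DHPG), 10.3% (DHPG in WT) and 8.69% (DHPG in Tsc2+/-) for RNA, 8.29%, 10%, 8.96% and 9.42% for RPF, and 7.91%, 9.39%, 10.5% and 10% for TE.

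Around these proteins, 96 further genes in 8 lists were examined: cap-binding factors and 4E-BPs, kinases and phosphatases of FMRP, La-related proteins, NUFIP and box C/D assembly factors, neuronal transport granule proteins, P-body and microRNA proteins, other stress granule proteins, and the WAVE complex with Rac. RNA was tested for 95 of them and RPF for 94, and 0 were called in any of the 21 comparisons, with a smallest adjusted p of 0.223. At an unadjusted p under 0.05, 2 were higher and 13 lower for RNA with DHPG averaged over genotypes, beside 591 higher and 496 lower of all 14516 genes (7.49%). For RPF in the same contrast 9 were higher and 2 lower, beside 533 higher and 345 lower of 12877 (6.82%). For genotype averaged over treatments 2 were higher and 6 lower for RNA, beside 443 higher and 445 lower of all genes (6.12%). For RPF there were 2 higher and 2 lower, beside 409 higher and 445 lower (6.63%).

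For RNA with DHPG averaged over genotypes, the gene of each list with the smallest p had a log2FC of -0.15 for Ssb (the La protein), 0.13 for Atxn2l (stress granules), -0.11 for Csnk2a1 (a casein kinase 2 subunit), -0.09 for Eif4a2 (a cap-complex helicase), 0.10 for Wasf3 (WAVE), -0.09 for Hnrnpa2b1 (transport granules), -0.18 for Nop58 (box C/D) and 0.24 for Mov10 (a helicase of the microRNA complex). For RPF they were -0.10 for Larp4, 0.15 for Ythdf1, 0.11 for Ppp2ca (the catalytic subunit of protein phosphatase 2A), -0.18 for Eif4e2, 0.14 for Abi2, -0.11 for Cpeb2, -0.18 for Rpap3 and -0.18 for Ago1. None of these had an adjusted p under 0.498.

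For genotype averaged over treatments, the corresponding RNA values were 0.08 for Ssb, 0.11 for Rps6kb2 (an S6 kinase), -0.08 for Eif4g1 (the cap-complex scaffold), -0.16 for Rac3, -0.09 for Cpeb4, -0.11 for Nop56 and 0.26 for Ago3. For RPF they were -0.13 for Larp7, -0.12 for Usp10 (a G3BP partner), 0.54 for Rps6kb2, -0.16 for Eif4e3, 0.08 for Nckap1 (the WAVE subunit beside CYFIP), -0.17 for Stau1, 0.11 for Nhp2l1 and -0.20 for Tnrc6b. The smallest adjusted p among these was 0.595.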

How the data were processed

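RNA-seq and ribosome profiling libraries (24 in all) were grouped by the labels' genotype, treatment and assay. The deposited values were expected counts per gene, which the authors made with RSEM and rounded: RNA over full RefSeq transcripts, and footprints over coding sequence without 30 bases at each end, after mapping to mm10, keeping unique reads and removing duplicates by molecular identifier. All 24 columns were used, and 0 were left without a sample. Genes were kept by filterByExpr (minimum count 10) and scaled by TMM in edgeR 4.0.16 (R 4.3.3). The quasi-likelihood test, two-sided, was fitted per assay on 12 libraries, its terms being group and replicate number. TE was the interaction of assay and group over 24 libraries, for 12785 genes, in place of the anota2seq of the study. That fit did not pair RNA and RPF libraries by lysate. An alternative that did so also called 0 of the 10 genes for TE. Genes with a Benjamini-Hochberg adjusted p under 0.1, over all genes tested, were called. The intervals are 95% intervals of that fit. Procedures were checked on simulated counts. Paralog windows were compared directly and genome copies searched with BLAST. From the surrounding lists, genes were named when called in any comparison or when they had the smallest p of their list in an averaged contrast. The gene named by this rule in 1 of these lists and contrasts is not reported here. The 10 genes and the lists were chosen with earlier results of these data known. The labels do not tie the replicates to separate animals. The study's methods describe them as biological replicates, each a pool of several mice. The p-values thus measure the spread between these pools that is left after group and replicate number are fitted. Alternatives included DESeq2 1.42.0 (alone, and after batch removal with ComBat from sva 3.50.0), changed scaling or filters, and omission of libraries.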

Additional observations from a re-analysis of the deposited data

How the results depend on the processing

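The number of genes of the set that were called stayed at 0 under every alternative run for the 21 comparisons (25 alternatives, 488 counts in all). The alternative with a stricter threshold (adjusted p under 0.05) reused the main fits, so its counts of 0 and its signs were fixed in advance. Without the replicate block, 0 of the 10 genes were called in each comparison; same-numbered libraries correlated at 0.0137 to 0.186 (RNA) and 0.0410 to 0.275 (RPF) in their deviations from the group means, over 18 pairs each, so not every pair was above 0.1; libraries of other numbers correlated at -0.168 to 0.0418 and -0.211 to 0.0707. Leaving out a replicate number or library gave 0 to 0 genes called. The sign of a log2FC that was not called differed from that reported in 120 of 1580 RNA values, 171 of 1650 RPF values and 147 of 1650 TE values, and the smallest adjusted p of any was 0.319 for G3bp2 RNA by DESeq2. Over all genes, leaving out WT vehicle replicate 2 raised the calls from 0 to 112 (RNA, DHPG in WT), 6 to 376 (TE, DHPG in WT), 0 to 74 (TE, genotype in vehicle) and 6 to 152 (TE, DHPG averaged), and leaving out replicate 3 raised RPF calls for genotype averaged over treatments from 8 to 69; the cause was not tested. Halving the even RPF counts of replicates 2 and 3 also left 0 of the 10 called for RPF and TE. With the median transcript length in place of the longest, Fxr1 stood at 18.8 RNA CPM per kb and 55.1 RPF CPM per kb in WT vehicle, against 17.4 and 50.4. Pooled slices, 3 libraries a group and few Nufip1 counts limit the precision.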
